A study of Mus musculus with 9 samples.

Results

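The genes that carry iron into the cell, store it, let it out and sense it were followed in BV2 microglial cells: Tfrc, Slc11a2, Slc11a1 and Lcn2 for uptake, Fth1, Ftl1 and Ncoa4 for storage, Slc40a1 for export, and Ireb2 and Aco1 for control. They were picked out by gene symbol, with earlier results of these data known. Each of the 10 symbols matched a single gene among the 54532 in the deposited expression table. BV2 is an immortalized line of mouse microglia, the resident macrophages of the brain. RNA sequencing covered 9 libraries, 3 of the control group, 3 of the oxygen-glucose deprivation (OGD) group and 3 of the OGD + A-485 group. Control cells were kept in complete medium with 10% serum. OGD cells were held under hypoxia in a medium low in glucose that contained 4% serum, and the OGD + A-485 group received in addition A-485, an inhibitor of the histone acetyltransferase P300. For the protein experiments of the same study the exposure was 24 h and the A-485 dose 50 μM, and neither is restated for the RNA libraries. Every library came from the same line, no library had A-485 without OGD, and serum, glucose and oxygen differed together between control and OGD, so their effects cannot be told apart. The labels do not say whether the replicates were separate cultures, so p-values speak only of these libraries, whose spread may be technical.

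Cells take up iron bound to transferrin through the transferrin receptor, release it from the endosome through a divalent metal transporter, keep what they do not use inside a shell of ferritin, and pass it out through ferroportin, the only known iron exporter of mammals. Microglia and other macrophages also recover iron from engulfed cells, and during inflammation they are known to hold it back from their surroundings. The balance is set largely after transcription: when iron is scarce, the iron regulatory proteins bind a hairpin called the iron responsive element, which blocks translation when it lies in the 5′ untranslated region (UTR) and protects the mRNA when it lies in the 3′ UTR. An mRNA level therefore reports only part of this control, and no protein or iron was measured in these libraries.

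The hairpins are shown to mark the members whose mRNAs match a strict form of this element. The search looked in GENCODE M21 transcripts (build GRCm38) for an unpaired C, 5 paired bases, the loop CAGTGN and the 5 bases that pair back, with G to T pairs allowed. It found 7 such hairpins in 4 of the 10 members, 1 in the 5′ UTR of each of Fth1, Ftl1 and Slc40a1 and 4 in the 3′ UTR of Tfrc. Each sequence is written 5′ to 3′ as DNA on the strand of the gene, with the 6 bases of the loop in capitals.
Fth1, 5′ UTR, chr19:9982732-9982760, plus strand: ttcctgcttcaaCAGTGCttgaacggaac
Ftl1, 5′ UTR, chr7:45459779-45459807, minus strand: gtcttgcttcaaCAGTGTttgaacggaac
Slc40a1, 5′ UTR, chr1:45925465-45925493, minus strand: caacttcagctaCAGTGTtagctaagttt
Tfrc, 3′ UTR, chr16:32631219-32631247, plus strand: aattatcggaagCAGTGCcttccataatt
Tfrc, 3′ UTR, chr16:32631598-32631626, plus strand: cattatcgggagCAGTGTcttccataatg
Tfrc, 3′ UTR, chr16:32631663-32631691, plus strand: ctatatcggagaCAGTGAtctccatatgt
Tfrc, 3′ UTR, chr16:32631710-32631738, plus strand: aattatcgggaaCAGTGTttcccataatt

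Among the 11367 protein-coding genes tested here, 0.22% held this hairpin in a 5′ UTR and 0.915% in a 3′ UTR, and no gene held more of them in a 3′ UTR than the 4 of Tfrc. The other 6 members had no match, which says only that these letters in this arrangement are not in their annotated UTRs. An element that departs from this pattern would be missed, so these members may still be open to the same control. A match is a description of sequence and not a measurement of binding.

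The libraries held between 12593250 and 16091038 reads on genes. Over all 9 libraries, BV2 cells had a mean of at least 1 FPKM for 9 of 10 microglia and macrophage markers, with P2ry12 below that level. FPKM here is the read count divided by gene length and by a factor for each library, which is not the library total. Aif1 averaged 0.613 FPKM in control, 0.889 under OGD and 2.57 with A-485, so it passed 1 FPKM only through A-485. The summed level of those 10 markers was 389 to 399 FPKM in control, 445 to 474 under OGD and 825 to 865 with A-485. Cd68 alone averaged 277, 306 and 445 FPKM in these groups. Markers of other cells were low, apart from Flt1. No neuron, astrocyte, oligodendrocyte, erythroid or neutrophil marker reached a mean of 1 FPKM over the 9 libraries. Hbb-bs and Hbb-bt of erythroid cells and S100a9 and Ly6g of neutrophils were at 0 in all 9 libraries. Of 5 endothelial markers Flt1 alone passed 1 FPKM, with a mean of 21.5 and single libraries at 19.4 to 23.1. Within single groups, S100a8 averaged 1.94 FPKM with A-485, Mbp 1.04 in control and 1.10 under OGD, and Hba-a1 1.22 in control. Fewer cells of a kind and less RNA per cell cannot be told apart in such bulk RNA.

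Under OGD, Lcn2 more than doubled, Tfrc fell, and Slc40a1 fell by a margin that some other settings did not keep. With A-485 added to OGD, Slc11a1, Slc11a2 and Ncoa4 rose, and Slc40a1 and Ireb2 fell. Genes are written here as having risen or fallen where limma, a linear model fitted to log2(FPKM + 0.1) of the 16123 genes that averaged at least 0.2 FPKM, gave an unadjusted p-value under 0.01 and a log2 fold change beyond 0.5 in size. Log2 fold changes are on that scale, are given with their standard error (SE), and stand beside Benjamini-Hochberg adjusted p-values over all genes tested. The model draws the spread of each gene toward that of genes with similar levels, so an SE or p-value does not rest on that gene alone. All 10 members passed the filter on low values.

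The count of members that passed is small in every comparison and has to be read against the whole table. In OGD against control 1 of 10 members rose and 2 fell, where 11.2% of all genes tested rose and 9.81% fell. In OGD + A-485 against OGD 3 members rose and 2 fell, against 12.2% and 13.4% of all genes. In OGD + A-485 against control 3 rose and 2 fell, against 17.0% and 16.6%. The median log2 fold change of the 10 members was -0.04, 0.26 and 0.37 in the 3 comparisons, and that of all genes tested was 0.01, 0.01 and 0.02. The comparisons share libraries, so their counts are not independent of each other.

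**Figure D1:**
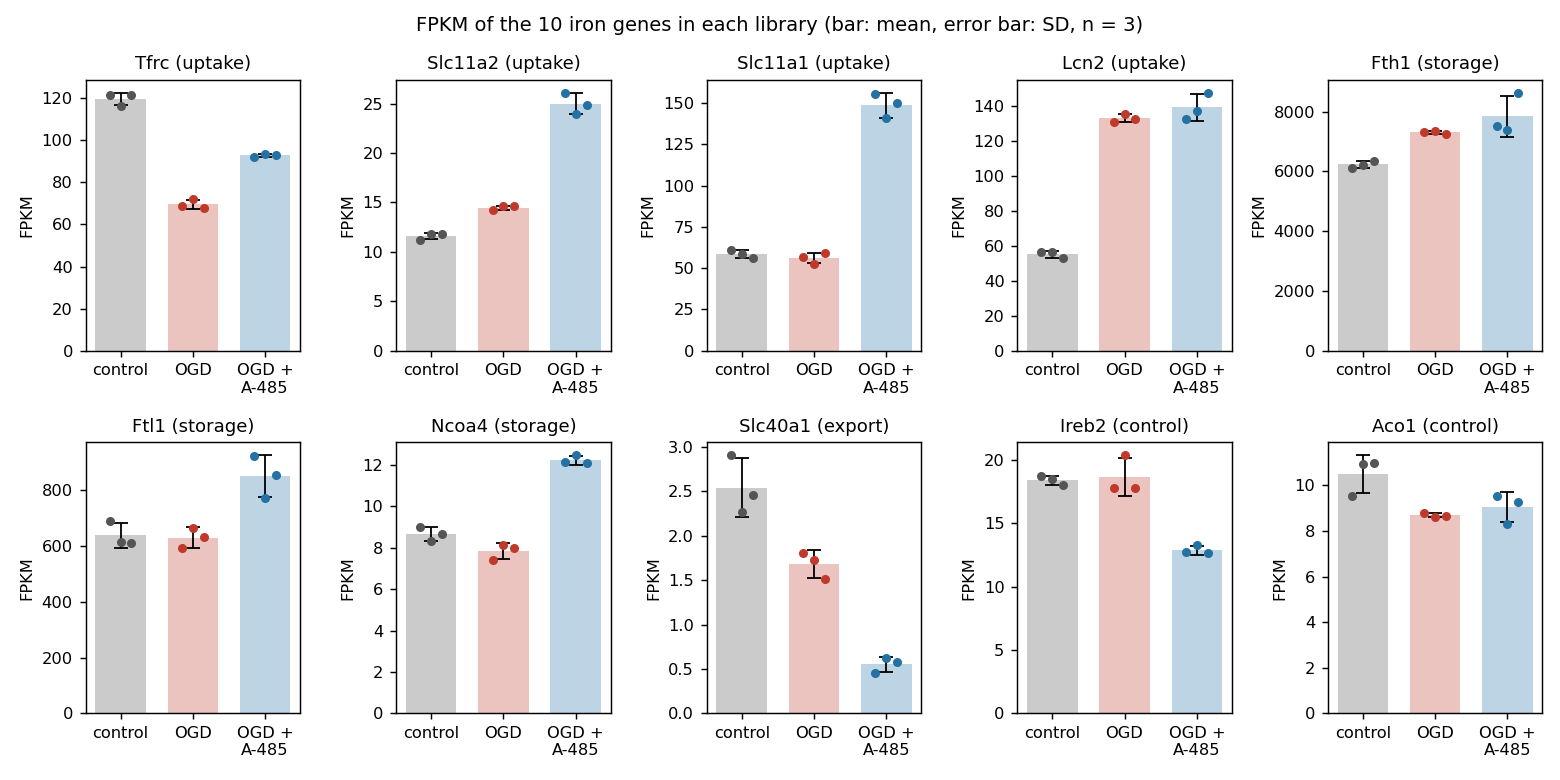
FPKM (vertical axis, linear from 0, a separate scale for each gene) of the 10 iron genes by group (control, OGD, and OGD with A-485), with a point per library, bars for the mean and error bars for the SD (n = 3). Lcn2 is high in both OGD groups, Slc11a1 only with A-485, and Slc40a1 steps down from control (2.54 FPKM) through OGD (1.68) to OGD + A-485 (0.551).

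Tfrc (ENSMUSG00000022797, chr16:32608920-32632794), the transferrin receptor, stood at 121, 116 and 121 FPKM in the control libraries, 68.7, 72.1 and 67.9 under OGD, and 92.2, 93.7 and 92.8 with A-485. The groups did not overlap, and the level with A-485 lay between the other two. Tfrc fell with OGD by 0.78 on the log2 scale (SE 0.04, limma adjusted p = 1.11e-06), to 58.1% of the control mean. With A-485 it was 1.34-fold the OGD level (log2 0.42, SE 0.04, limma adjusted p = 1.77e-05), a difference larger than the spread between libraries but under the fold limit. Against control it remained at 77.6% of the mean (log2 -0.36, SE 0.04, limma adjusted p = 2.64e-05). The fall with OGD passed in all 22 alternative settings. Not all of these are separate checks. Scaling by median-of-ratios factors repeated the reported fit, and leaving out an OGD + A-485 library could not change this fold. This is the mRNA with 4 hairpins in its 3′ UTR.

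Slc11a2 (ENSMUSG00000023030, chr15:100387898-100425072), the divalent metal transporter that moves iron out of the endosome, was at 11.2, 11.9 and 11.8 FPKM in control. It was at 14.3, 14.6 and 14.6 FPKM in OGD and at 26.1, 24 and 24.9 in OGD + A-485. The 3 groups were ordered without overlap. Its difference between OGD and control was 0.32 on the log2 scale (SE 0.04, limma adjusted p = 0.000366), which did not reach the fold limit. With A-485 it rose 1.72-fold over OGD (log2 0.78, SE 0.04, limma adjusted p = 1.43e-06), and it reached 2.14-fold the control level (log2 1.10, limma adjusted p = 1.28e-07). Tfrc and Slc11a2, which act one after the other on the same route, therefore did not move together under OGD.

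Slc11a1 (ENSMUSG00000026177, chr1:74375195-74386062), the related transporter of the phagosome membrane in macrophages, had 61.2, 58.7 and 56.3 FPKM in control and 56.5, 52.8 and 59.0 in OGD. These libraries overlapped, and the difference was -0.07 (SE 0.06, limma adjusted p = 0.376). With A-485 it had 156, 141 and 150 FPKM, above every other library. The rise over OGD was 2.65-fold (log2 1.41, SE 0.06, limma adjusted p = 2.35e-07), the largest of the 10 members in that comparison, and over control 2.53-fold (log2 1.34, limma adjusted p = 1.65e-07). Both rises passed in all 22 alternative settings. Of all genes tested, 12.2% rose in OGD + A-485 against OGD, with a median log2 fold change of 0.01. Of the microglia and macrophage markers, 7 of the 9 tested rose there, with a median of 1.35. The part that this rise of the markers has in the values of Slc11a1 and Slc11a2 was not tested.

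Lcn2 (ENSMUSG00000026822, chr2:32384633-32388252), lipocalin 2, a secreted protein that binds the iron carriers of bacteria and is a known product of inflammation, was at 56.4, 56.7 and 53.1 FPKM in control. In OGD it was at 131, 136 and 133 FPKM and in OGD + A-485 at 133, 137 and 148. Control was below every other library, while both OGD groups overlapped. Lcn2 rose 2.40-fold with OGD (log2 1.27, SE 0.05, limma adjusted p = 3.92e-07). A-485 left a difference from OGD of 0.06 (95% interval -0.04 to 0.17, limma adjusted p = 0.306), and the level stayed 2.51-fold over control (log2 1.33, limma adjusted p = 8.10e-08). Neutrophils are another source of Lcn2. The 6 neutrophil markers summed to 0.407 to 0.721 FPKM in control, 0.341 to 0.533 under OGD and 1.65 to 3.09 with A-485, with S100a9 and Ly6g at 0 throughout. Their part in the Lcn2 values was not tested.

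**Figure D2:**
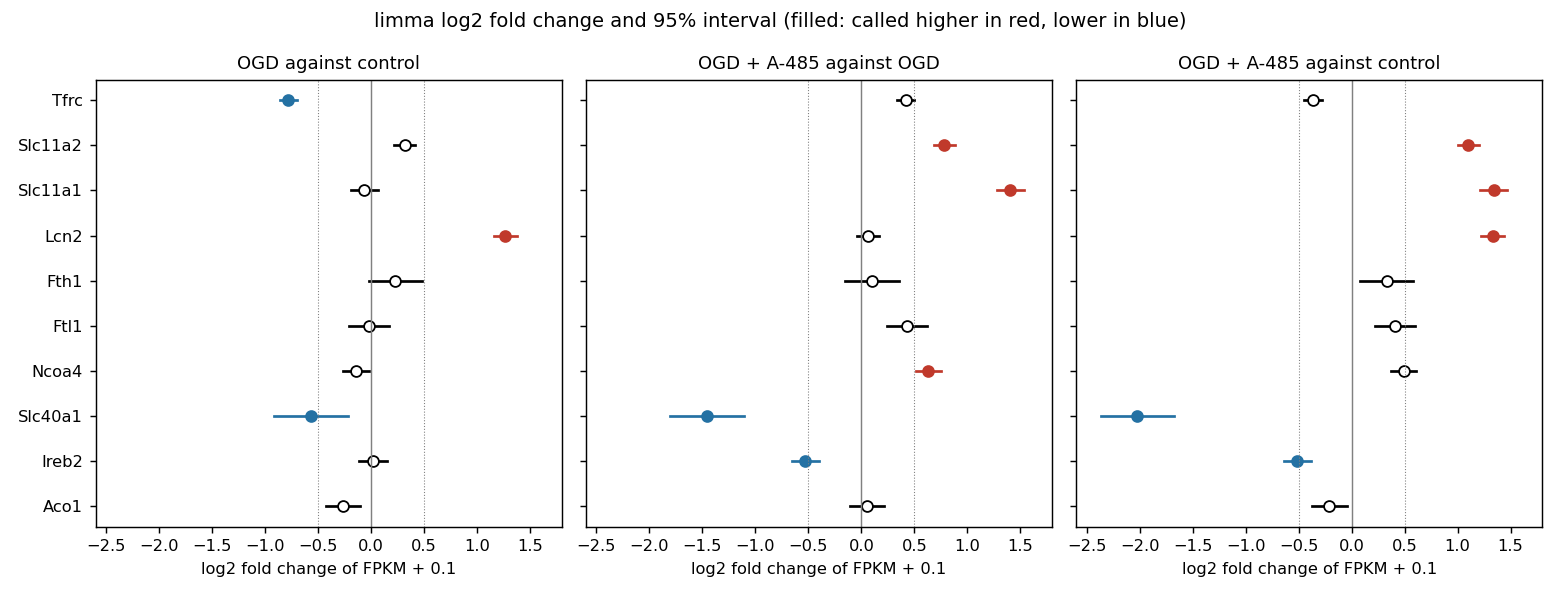
limma log2 fold change of FPKM + 0.1 (horizontal axis) with its 95% interval for the 10 iron genes in the 3 comparisons, where filled points passed p under 0.01 and the dotted limits at 0.5. Tfrc lies at -0.78 in the first panel and 0.42 in the second, and Lcn2 is at 0.06 in the second panel. The point of Slc40a1 is left of the lower limit in all panels, but its interval in the first panel (-0.91 to -0.22) crosses that limit.

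The ferritin chains were by far the most abundant members. Fth1 (ENSMUSG00000024661, chr19:9982703-9985092), the heavy chain that oxidizes iron for storage, was at 6124, 6209 and 6361 FPKM in control. It was at 7314, 7351 and 7245 FPKM in OGD and at 7515, 7397 and 8636 in OGD + A-485. The ranges of the 3 groups did not overlap, and Fth1 ranked between 1 and 3 of all genes by FPKM in every library. The log2 difference from control was 0.23 in OGD (SE 0.11, limma adjusted p = 0.125) and 0.33 in OGD + A-485 (SE 0.11, limma adjusted p = 0.0302). Neither reached the fold limit. The adjusted p of the OGD difference ran from 0.000153 with limma-voom on recovered reads to 0.572 at the highest of the alternative settings. The deposited table gives Fth1 a length of 866 bases where the exons of GENCODE M21 cover 3469, so its level per length depends on the annotation used, and its group differences over the longer exons were not tested.

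Ftl1 (ENSMUSG00000050708, chr7:45457944-45459884), the light chain of the same shell, was at 690, 615 and 611 FPKM in control and at 591, 666 and 634 in OGD. Those libraries overlapped (log2 -0.02, SE 0.08, limma adjusted p = 0.885). With A-485 it was at 923, 774 and 855 FPKM, above all 6 other libraries. The difference from OGD was 0.43 (SE 0.08, limma adjusted p = 0.00227), beyond the spread between libraries and within the fold limit. Ferritin has copies elsewhere in the genome, and reads may be shared with them. Ftl1-ps1, the copy with the most reads, is annotated as protein coding. It had 12.6 to 24.4 FPKM and a log2 difference of 0.48 in OGD + A-485 against OGD, close to that of Ftl1. The other 4 copies, annotated as processed pseudogenes, had at most 12 reads in any library. Fth1 and Ftl1 together took 0.647% to 0.822% of the reads on genes.

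The ratio of Fth1 to Ftl1 compares the chains within a library and does not depend on its scaling. It was 8.87, 10.1 and 10.4 for control, 12.4, 11.0 and 11.4 under OGD, and 8.14, 9.56 and 10.1 with A-485. OGD stood above every library of the other groups. The log2 ratio differed by 0.25 between OGD and control and by -0.33 between OGD + A-485 and OGD. Each gave p = 0.1 in a two-sided exact permutation test, which is the smallest value that 3 against 3 libraries allow, so neither could pass 0.05. OGD + A-485 and control overlapped (log2 difference -0.08, exact permutation p = 0.6).

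Ncoa4 (ENSMUSG00000056234, chr14:32159865-32179855), the receptor that carries ferritin to the lysosome for breakdown, was at 9.02, 8.33 and 8.68 FPKM in control and 7.42, 8.14 and 7.99 in OGD. OGD lay just under control without overlap, with a log2 difference of -0.14 (SE 0.05, limma adjusted p = 0.0521). With A-485 it was at 12.1, 12.5 and 12.1 FPKM. It rose 1.55-fold over OGD (log2 0.63, SE 0.05, limma adjusted p = 1.40e-05) and stood 1.41-fold over control (log2 0.49, limma adjusted p = 4.50e-05), just inside the fold limit. The fold over OGD passed in all 22 alternative settings. All 3 storage genes had their highest mean in OGD + A-485, though under quantile normalization Fth1 was lower there than in OGD (log2 -0.07).

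Slc40a1 (ENSMUSG00000025993, chr1:45908068-45926523), ferroportin, was the least abundant member in each group. It had 2.90, 2.26 and 2.46 FPKM for control, 1.81, 1.72 and 1.51 under OGD, and 0.456, 0.619 and 0.578 with A-485. The groups were ordered without overlap, and the reads behind a value numbered 290 to 358 for control, 191 to 207 for OGD and 60 to 88 with A-485. Slc40a1 fell with OGD by 0.57 on the log2 scale (SE 0.15, limma adjusted p = 0.0148). That call did not hold with a pseudocount of 1 (log2 -0.40), nor without control library 1 (-0.47), control library 3 (-0.58), OGD library 2 (-0.58) or OGD library 3 (-0.49). With A-485 it fell 2.74-fold below OGD (log2 -1.46, SE 0.15, limma adjusted p = 6.02e-05), to 21.7% of the control mean (log2 -2.02, SE 0.15, limma adjusted p = 5.11e-06). Both of those falls passed in all 22 alternative settings, though with a pseudocount of 1 they were -0.79 and -1.19 on the log2 scale.

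Receptor and exporter were also set against each other within each library. The ratio of Tfrc to Slc40a1 was 41.8, 51.4 and 49.4 for control, 38.0, 41.8 and 45.0 under OGD, and 202, 151 and 161 with A-485. Control and OGD overlapped (log2 difference -0.19, exact permutation p = 0.2). The OGD + A-485 libraries were above all others, 4.09-fold over OGD and 3.59-fold over control, each with p = 0.1 in the exact permutation test, its smallest value. With a pseudocount of 1 on both genes the log2 difference from OGD was 1.20 in place of 2.03, since Slc40a1 was under 1 FPKM with A-485.

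**Figure D3:**
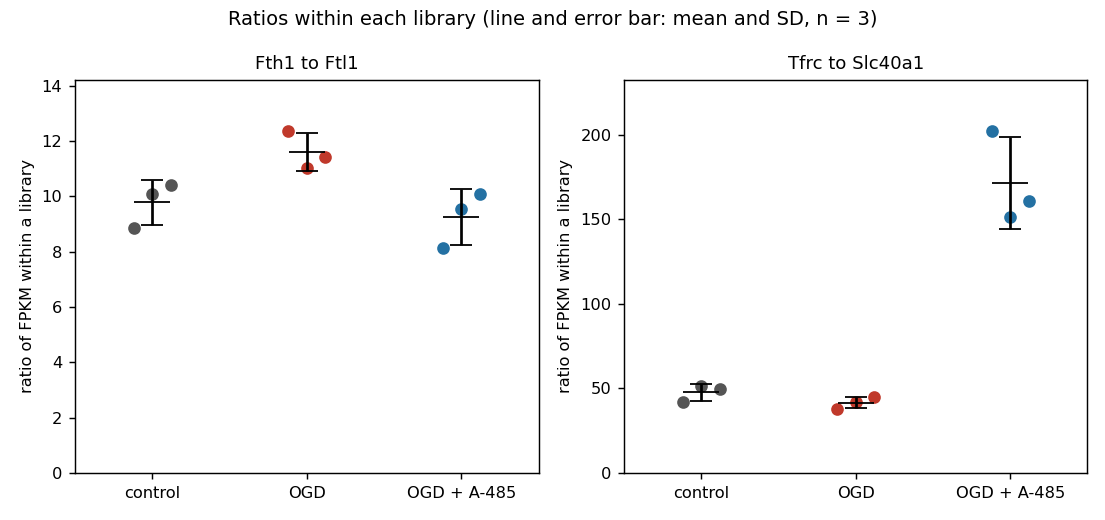
Ratio of FPKM within each library (vertical axes, linear from 0) of Fth1 to Ftl1 and of Tfrc to Slc40a1 in the 3 groups, with a point per library and the mean and SD (n = 3). The Fth1 to Ftl1 ratio is highest in OGD (11.0 to 12.4), and the Tfrc to Slc40a1 ratio is 151 to 202 with A-485 and at most 51.4 without.

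Ireb2 (ENSMUSG00000032293, chr9:54863789-54912530), iron regulatory protein 2, was at 18.7, 18.5 and 18.0 FPKM in control and 17.8, 20.4 and 17.8 in OGD, which overlapped. With A-485 it was at 12.7, 13.3 and 12.7 FPKM, below every other library. It fell by 0.53 relative to OGD (SE 0.06, limma adjusted p = 6.93e-05) and by 0.51 relative to control (SE 0.06, limma adjusted p = 6.00e-05). Both values lie close to the fold limit. The fall relative to OGD did not pass with a pseudocount of 1 (-0.50) or without OGD library 2 (-0.46), and that relative to control did not pass with a pseudocount of 1 (-0.48) or without OGD + A-485 library 3 (-0.50). The 50 nearest genes of the same chromosome had a median log2 fold change of -0.37 in OGD + A-485 against OGD, and Ireb2 differed from them by -0.15. With this median removed Ireb2 passed in neither comparison. Its part in the fall of Ireb2 was not tested. No other member had neighbours with a median beyond 0.19 in size.

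Aco1 (ENSMUSG00000028405, chr4:40143081-40198338), which is iron regulatory protein 1 when it lacks its iron-sulphur cluster and an aconitase when it holds it, was at 9.54, 11.0 and 11.0 FPKM in control. It was at 8.79, 8.63 and 8.68 FPKM in OGD and at 9.54, 8.31 and 9.29 in OGD + A-485. OGD lay below control without overlap, by a log2 difference of -0.27 (SE 0.07, limma adjusted p = 0.0150) that was within the fold limit. The OGD groups overlapped (log2 0.05, SE 0.07, limma adjusted p = 0.576).

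Ranked by mean FPKM, which is per length, Fth1 and Ftl1 came first and second and Slc40a1 last in each group. In control Tfrc followed at 120 FPKM, ahead of Slc11a1 (58.8) and Lcn2 (55.4), whose libraries overlapped. In OGD Lcn2, at 133 FPKM, had passed Tfrc, at 69.6. In OGD + A-485 Slc11a1 (149) and Lcn2 (139), which overlapped, both stood above Tfrc (92.9), and Slc11a2 (25.0) stood above Ireb2 (12.9), the reverse of their order in the other groups. No other neighbours in these orders overlapped.

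By likeness over the 9 libraries, the genes nearest to each member that passed in the first or second comparison were picked by Pearson's r of log2(FPKM + 0.1) among the 11897 genes that averaged at least 1 FPKM. With 3 groups of 3 libraries such values mostly describe 3 group means, so they are given as a description. Nearest to Tfrc were Naa50, Ppat and Eif1ad (r = 0.993 each). Nearest to Slc11a2 were Trem2, Smarca2 and Unc93b1 (r = 0.998 each), and to Slc11a1 Tcirg1, Nrros and Gpnmb (r = 0.998 each). Nearest to Lcn2 were 2010005H15Rik, Mmp12 and Selenbp1, to Ncoa4 Gm20658, Rnase4 and Lonrf3, to Slc40a1 Hpf1, Uri1 and Nln, and to Ireb2 Lrrc49, Ttbk2 and Dock4, with r between 0.992 and 0.998. In control, OGD and OGD + A-485, Gm20658 averaged 0.303, 0.0996 and 4.62 FPKM, Rnase4 0.689, 0.167 and 20.6, and Smarca2 0.569, 1.04 and 4.15. They passed the limit of 1 FPKM only through OGD + A-485, where Ncoa4 and Slc11a2 are also highest, so their likeness is partly built in. Among the members themselves, Slc11a2 and Slc40a1 ran most oppositely (r = -0.996).

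The rest of the iron and haem pathway was taken from 6 lists of 82 genes in the table, of which 61 passed the filter on low values. These lists too were chosen with earlier results of these data known. In OGD against control 6 of the 61 rose and 14 fell (9.84% and 23.0%, against 11.2% and 9.81% of all genes tested), with a median log2 fold change of -0.12. In OGD + A-485 against OGD 15 rose and 2 fell (24.6% and 3.28%, against 12.2% and 13.4%), with a median of 0.13. The 15 include Abcg2, which passed the filter on low values only through its OGD + A-485 libraries.

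**Figure D4:**
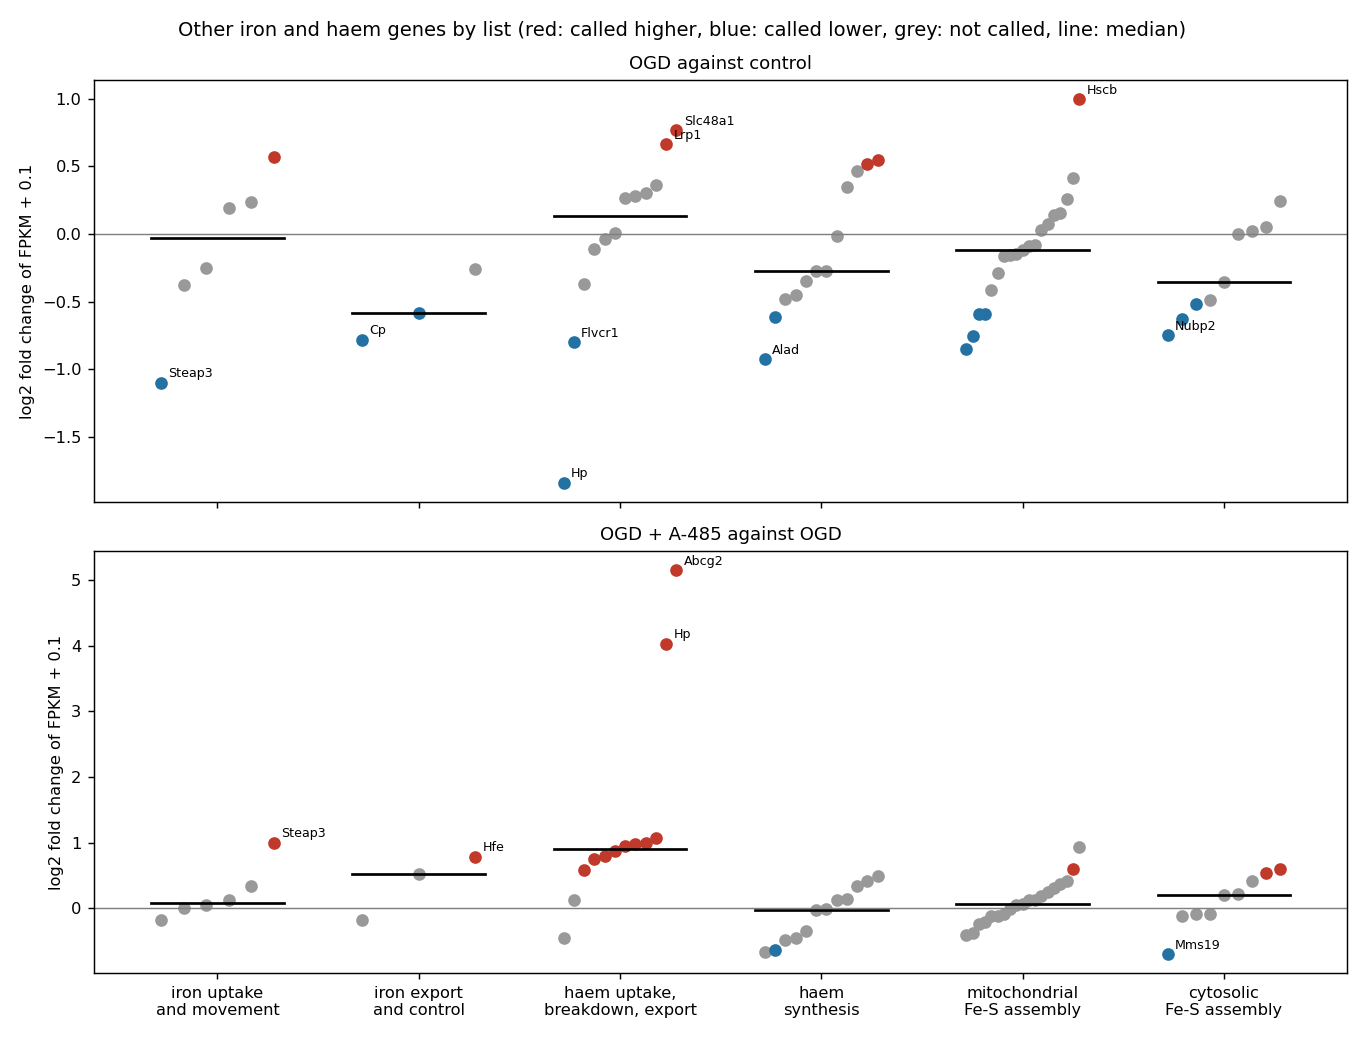
limma log2 fold change of FPKM + 0.1 (vertical axes) of the 61 other iron and haem genes tested, by list, in OGD against control (top) and OGD + A-485 against OGD (bottom), with a point per gene and a line at each list's median. In the bottom panel the haem uptake, breakdown and export list has its median at 0.91 and 10 of 12 genes in red. Among these is Abcg2, which passed the filter on low values only through OGD + A-485.

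Among 6 other genes of iron uptake and movement, Mcoln1, an iron-permeable channel of the lysosome, rose with OGD (log2 0.57, SE 0.05, limma adjusted p = 3.99e-05). Steap3, the reductase that prepares iron for Slc11a2 in the endosome, went from 6.42, 6.16 and 6.34 FPKM for control to 3.05, 2.59 and 3.06 under OGD, and stood at 6.25, 5.13 and 6.31 with A-485. Steap3 thus fell with OGD (log2 -1.10, SE 0.10, limma adjusted p = 3.09e-05), as Tfrc did, and rose with A-485 (log2 1.0, SE 0.10, limma adjusted p = 4.08e-05) to a range that overlapped control. Of 3 genes of export and its control, Hfe, which binds the transferrin receptor, fell with OGD (log2 -0.58, SE 0.14, limma adjusted p = 0.00721) and rose with A-485 (log2 0.78, SE 0.14, limma adjusted p = 0.00125). Cp, ceruloplasmin, which oxidizes iron leaving the cell, also fell with OGD but had means under 1 FPKM in all groups and was named after its values were seen.

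The list of haem uptake, breakdown and export, which also held the regulators Bach1 and Nfe2l2, held most of the genes that rose with A-485. Of its 12 genes tested, 2 rose and 2 fell with OGD, and 10 rose and none fell in OGD + A-485 against OGD (limma, unadjusted p under 0.01 and the fold limit), with a median log2 fold change of 0.91. The 2 and 2 are 16.7% each, near the 11.2% and 9.81% of all genes, and the 10 are 83.3% beside 12.2%. Abcg2, 1 of the 10, passed the filter on low values only through its OGD + A-485 libraries. In that comparison it could therefore count only as a rise. Hp, haptoglobin, which binds free haemoglobin, was at 4.06, 3.15 and 4.0 FPKM in control, 0.880, 1.0 and 1.02 under OGD, and 16.7, 16.1 and 19.4 in OGD + A-485. It fell with OGD (log2 -1.84, SE 0.12, limma adjusted p = 5.53e-06) and rose with A-485 to well above control (log2 4.03 over OGD, SE 0.12, limma adjusted p = 5.15e-08). Abcg2, an exporter of haem and porphyrins, had 0 reads in every OGD library and 3.32, 3.18 and 3.90 FPKM with A-485, at least 120-fold higher when 3 reads per library are taken as the floor. Flvcr1, a haem exporter, averaged 8.93 FPKM for control, 5.10 under OGD and 8.86 with A-485, while Slc48a1, which moves haem out of the lysosome, rose with OGD (log2 0.77, SE 0.07, limma adjusted p = 3.75e-05), and so did Lrp1, a receptor for haem bound to hemopexin (log2 0.66, limma adjusted p = 8.75e-05).

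The other 8 that rose with A-485 were Hmox2, Blvra, Blvrb, Slc46a1, Bach1, Nfe2l2, Lrp1 and Flvcr1, with log2 fold changes between 0.59 and 1.07. Hmox1, the inducible enzyme that frees iron from haem, was named after its values were seen. It averaged 137 FPKM for control, 169 under OGD and 184 with A-485, and its log2 differences of 0.30 and 0.12 did not reach the fold limit.

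Of 12 genes of haem synthesis, Alas1, the rate-limiting enzyme, rose with OGD (log2 0.55, SE 0.05, limma adjusted p = 2.26e-05) and fell with A-485 (log2 -0.64, SE 0.05, limma adjusted p = 6.45e-06). Tspo, a protein of the outer mitochondrial membrane, also rose with OGD (log2 0.51), and Alad and Uros, enzymes of later steps, fell (log2 -0.92 and -0.61). In iron-sulphur cluster assembly of the mitochondrion, 1 of 19 genes rose with OGD and 4 fell (5.26% and 21.1%, against 11.2% and 9.81% of all genes tested). Hscb, a chaperone that hands on the finished cluster, rose (log2 1.0, SE 0.08, limma adjusted p = 1.40e-05), while Iscu, the scaffold on which clusters are built, fell (log2 -0.75). With A-485 Iba57 alone of the 19 rose (log2 0.59) and none fell, where 12.2% of all genes tested rose and 13.4% fell. Of 9 genes of cytosolic assembly, Nubp2 and Ndor1 fell with OGD (log2 -0.75 and -0.63) and rose with A-485 (log2 0.60 and 0.54), and Mms19, which delivers clusters to proteins of DNA metabolism, fell with A-485 (log2 -0.70).

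Some of these calls did not hold in other settings. Scaled to library totals, Alas1 and Tspo did not pass with OGD, nor Ndor1 with A-485. With the median of neighbouring genes removed, Mcoln1 and Uros did not pass with OGD, nor Alas1, Mms19, Iba57, Ndor1 and Lrp1 with A-485, and Lrp1 did not pass under quantile normalization either. With a pseudocount of 1, Hfe and Ndor1 passed in neither comparison, Uros and Cp not with OGD, and Iba57 not with A-485. When single libraries were left out, Tspo, Alad, Hfe and Cp each lost the OGD call in at least 1 case, among them Hfe without control library 1 and Alad without control library 3 or OGD library 1. Tspo lost it without control library 3, OGD library 1 or OGD library 3. Cp lost it without control library 1 or 3 or OGD library 2 or 3. Iba57 lost the A-485 call without OGD library 2 or OGD + A-485 library 1, and Ndor1 without OGD library 1 or OGD + A-485 library 1.

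Promoter windows from RefSeq (GRCm38.p6, 250 bases before to 50 after the start) were given for 8 of the 10 members, with Slc40a1 and Slc11a2 missing, in 12 windows of 32851. The core of the hypoxia response element was searched as ACGTG and GCGTG on both strands. ACGTG was in 4 of the 12 windows, of Tfrc and Ncoa4, against 19.6% of all windows. GCGTG was in 7, of Tfrc, Ncoa4, Slc11a1, Fth1 and Ftl1, against 32.4%. CACGTG, which contains ACGTG, was in none of the 12 against 7.15%, and TGACNNNGC, the core of the antioxidant response element, was in 1, of Ncoa4, against 12.4%. A loose form of the NF-κB motif was in 10 of the 12 against 50.8%, of Lcn2, Aco1, Ftl1, Ireb2, Ncoa4, Tfrc and Fth1. The 12 windows are not independent: Ncoa4, Tfrc and Fth1 have more than 1 each. Windows of Tfrc and of Ncoa4 overlap, so a site can count more than once. The loop CAGTGN in the bases after the start was in none of the 12 against 7.08%. These are matches of letters and not measured sites.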

How the data were processed

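RNA of 9 BV2 libraries was compared in 3 groups of 3, mapped by the sample labels. Per the study's methods the authors removed low-quality reads, counted reads on genes with featureCounts and computed FPKM from count and gene length, and the deposited table holds FPKM on GRCm38 (mm10) coordinates. The authors' DESeq2 test was not repeated. Deposited FPKM times gene length and a library factor gave whole reads for 100% of values within 0.1 read, and limma-voom on these reads was an alternative. Those factors are not the library totals. Scaling to library totals put the median log2 fold change of all genes tested at -0.0253, -0.0485 and -0.0894 in the 3 comparisons. The deposited values, and scaling by median-of-ratios factors, put it at 0.01, 0.01 and 0.02. The aligner, annotation release and strand setting are not given in the sources used here. Without strand, Ftl1 and Slc11a2 share exon bases with antisense genes of at most 0.424 FPKM.

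Group means were fitted over all 9 libraries by limma (version 3.58.1, R version 4.3.3) with a trended prior variance, tested on simulated data. Ratios were compared with exact permutation tests. The rest used scipy 1.17.1, pandas 2.3.3, numpy 2.4.6 and matplotlib 3.10.9 under Python 3.11.15. Members and lists were chosen with earlier results of these data known. Named were all members, in each list and direction the 2 genes with the largest change among those that passed with a mean of at least 1 FPKM and no overlap, the 3 genes most like each member that passed, and ferritin copies. Alternatives changed the pseudocount, filter, scaling, model, call rule and libraries, and removed the median of the 50 nearest genes. No replicate pair held identical values. Some genes that this rule names are not reported here.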

Additional observations from a re-analysis of the deposited data

How the results depend on the processing

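Over the alternatives, 626 of the single-gene values kept direction and side of the threshold, 12 lost the call, 12 gained it and 10 changed sign. Not all of the 626 are separate checks. Scaling by median-of-ratios factors repeated the reported fit, with 7300, 8036 and 9130 genes at an adjusted p under 0.05 in limma either way. Leaving out a library of the group not compared kept the log2 fold change and could alter only its spread. The causes were not tested. With a pseudocount of 1 the members that fell numbered 1 in each comparison, other iron genes that fell with OGD numbered 9, and the Tfrc to Slc40a1 differences were -0.38, 1.20 and 0.83 (log2, in the order of the comparisons). Quantile normalization put the last 2 at 1.70 and 1.54. Under an adjusted p under 0.05 with no fold limit, members that rose numbered 2, 5 and 6, members that fell against control with A-485 numbered 4, and other iron genes numbered 15 higher and 26 lower with OGD and 27 higher and 11 lower with A-485. With neighbouring genes removed, 1 member fell in either A-485 comparison. Scaled to library totals, 5 other iron genes fell with A-485. The replicate numbers did not pair the libraries (correlations of same-numbered libraries -0.0463 to 0.0386), and with the replicate block 1 member fell with OGD, since Slc40a1 kept its log2 fold change (-0.57) but had an unadjusted p of 0.0146 in limma (adjusted p = 0.0365). It changed no other member's call.

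When single libraries were left out, the members that fell numbered 1 to 2 in each comparison, and other iron genes that fell with A-485 numbered 2 to 4 (4 without OGD library 1 or OGD + A-485 library 1). The Fth1 to Ftl1 difference between OGD + A-485 and control ran from -0.15 to 0.0092, positive without OGD + A-485 library 1.

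All sign changes were in small values. Among the left-out libraries, Ftl1 in OGD against control ran from -0.059 to 0.039 and Ireb2 from -0.048 to 0.049. Ireb2 there was -0.033 by library totals and -0.072 without its neighbours' median. In OGD + A-485 against OGD, quantile normalization gave Lcn2 -0.043 and Fth1 -0.066, library totals gave Lcn2 -0.0022 and Aco1 -0.011, and removing neighbours gave Aco1 -0.0037. Depth limits mainly Slc40a1, with 60 to 358 reads per library.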

Other observations

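The hairpin search also matched other genes tested. Of 22 other genes with the hairpin in a 5′ UTR, 2 rose and 3 fell with OGD, none rose and 4 fell in OGD + A-485 against OGD (limma, unadjusted p under 0.01 and the fold limit), and 2 rose and 8 fell in OGD + A-485 against control. Their median log2 fold changes were -0.16, -0.15 and -0.32, beside 0.01, 0.01 and 0.02 over all genes. The percentages of all genes tested that rose and fell were 11.2% and 9.81%, 12.2% and 13.4%, and 17.0% and 16.6% in the 3 comparisons. Nasp, a histone chaperone, and Aunip were 2 of the 8 (log2 -1.17 and -1.18), and were named after their values were seen. Ftl1-ps1 was among the 2 that rose in OGD + A-485 against control (log2 0.57), and its reads may be shared with the member Ftl1. Of 103 other genes with the hairpin in a 3′ UTR, 13 rose and 10 fell with OGD, and 22 rose and 19 fell in OGD + A-485 against OGD, which is 12.6% and 9.71%, near the percentages of all genes, and 21.4% and 18.4%. These counts describe a sequence match, and whether any of these hairpins binds a regulatory protein was not tested.

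Reads of mitochondrial genes took 1.82% to 2.20% of the total for control, 1.14% to 1.28% under OGD and 1.66% to 2.01% with A-485. Their part in the values of the iron genes was not tested.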
